A study of Mus musculus with 5 samples.

Results

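The brush border genes described here are 10 genes of the apical membrane of the proximal tubule, taken by gene name from the 35478 genes listed for each kidney. They are 7 ectoenzymes (Mep1a, Mep1b, Anpep, Dpp4, Ggt1, Dpep1 and Treh) and 3 structural or scaffold genes (Vil1, Cdhr5 and Pdzk1). All 10 were among the 16394 genes that passed the filter on low counts and were tested. RNA-seq was performed on the kidney cortex of male mice aged 7–8 weeks (strain C57BL/6J;129) with unilateral ischemia-reperfusion injury (UIRI), at day 11. In this model the left renal pedicle was clamped for 35 minutes on a bath at 38.5°C, the right kidney was removed at day 10 and the mice were killed 24 hours later. The groups were 2 Prdm16fl/fl UIRI mice, numbered 1 and 3 and called control mice here, which carry the floxed alleles without Cre, and 3 Ksp-Cre/Prdm16fl/fl UIRI mice, numbered 1, 2 and 3 and called Ksp-Cre mice here. Ksp-Cre drives Cre recombinase from the promoter of Cdh16, the kidney-specific cadherin, in tubular epithelium, where it removes exon 9 of Prdm16. All 5 mice had UIRI, so the comparison is of genotype within injury, and no uninjured kidney was analysed here.

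The brush border is the carpet of microvilli that faces the tubular lumen in the proximal tubule. Peptidases and other hydrolases are anchored in its membrane with their active sites outside the cell, where they cleave filtered peptides, glutathione and sugars to pieces that the cell can take up. Villin bundles the actin core of each microvillus, protocadherins link the tips of neighbouring microvilli, and PDZ-domain scaffolds hold transporters in place below the membrane. After ischemia, proximal tubule cells are known to shed their brush border and to lose differentiated transcripts.

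Total counts were 14939040 to 16425161 per library, and no 2 libraries were duplicates. Prdm16, the targeted gene, was at 25.28 and 20.02 counts per 1000000 (CPM, scaled with edgeR's TMM factors) in control mice 1 and 3 and at 17.1, 17.0 and 18.0 CPM in Ksp-Cre mice 1, 2 and 3. Its log2 fold change was -0.38 (adjusted p = 0.259, edgeR), and the count covers the whole gene in all cells of the cortex. Cdh16, whose promoter drives Ksp-Cre, was at 979.7 and 943.7 CPM against 867.7, 889.6 and 574.8 CPM (adjusted p = 0.497, edgeR). Ksp-Cre mouse 3 stood apart from the other libraries, with correlations of log2 CPM across genes of 0.943 to 0.960 with them, where the other 4 libraries correlated at 0.970 to 0.991 with each other. Of 7 intestinal brush border genes, 5 were at 3 counts or fewer in every library. Mgam, maltase-glucoamylase, made up nearly all of the summed level of the list, at 62.4 and 60.7 CPM in the control mice and at 38.9, 58.2 and 39.6 CPM in the Ksp-Cre mice.

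At an adjusted p under 0.05, 2 of the 10 genes were called lower in Ksp-Cre kidneys, Ggt1 and Dpep1, and 6 of the 10 had an unadjusted p under 0.05, as did 18.8% of all genes tested. None was called higher by edgeR or DESeq2. Ggt1 and Dpep1 fell by more than 1 on the log2 scale. Of all 16394 genes tested, 0.872% were called lower, 0.628% were called lower by at least 1 on the log2 scale, and 0.104% were called higher. In CPM, all 3 Ksp-Cre mice lay below both control mice for 9 of the 10 genes, Vil1 being the exception, where 21.3% of all genes tested were separated in this way. The median log2 fold change of the 10 genes was -0.84, and that of all genes tested was 0.038. The order of the mice was not the same for each gene. Ggt1 was at 34.66% to 42.55% of the control mean in the 3 Ksp-Cre mice. Dpep1 was at 28.37% to 43.89% of it, lowest in mouse 2. Mep1a, Mep1b, Anpep, Dpp4 and Pdzk1 were lowest in mouse 3, whereas Treh, Cdhr5 and Vil1 were highest in it among the Ksp-Cre mice.

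**Figure D1:**
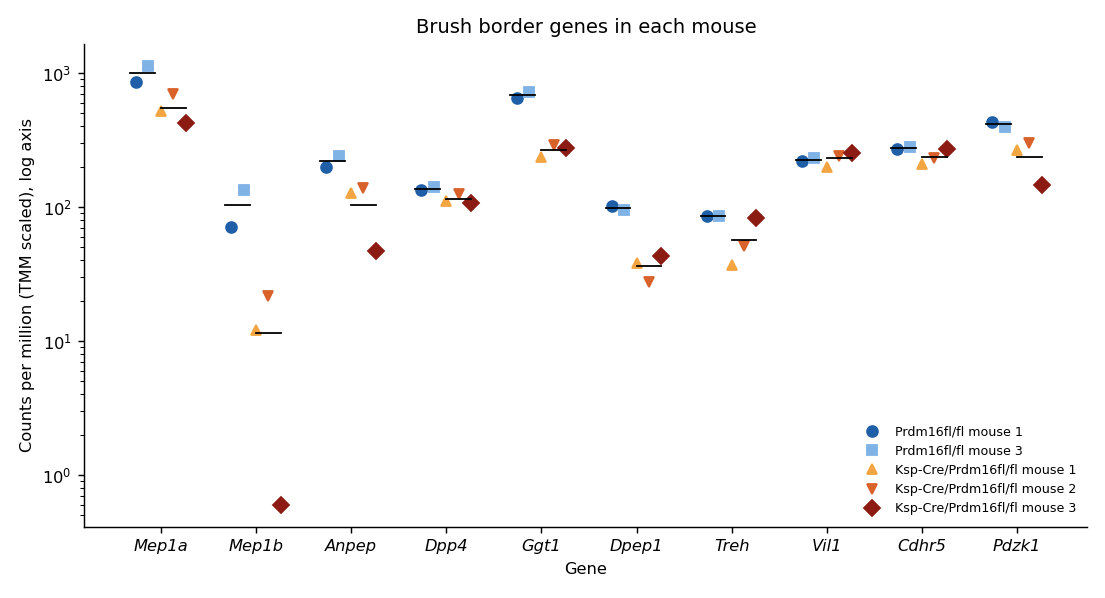
TMM-scaled counts per 1000000 (log axis) of the 10 brush border genes in each of the 5 mice, with 1 symbol per mouse and a black line at the mean of each genotype. For Ggt1 and Dpep1 the 2 groups lie apart. Mep1b runs from 134.9 CPM down to 0.600 CPM, and the Vil1 groups overlap.

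The 2 genes called lower both act on glutathione and its products. Ggt1, gamma-glutamyltransferase, removes the glutamyl group from glutathione at the outer face of the cell. It is listed at chr10:75396910-75422027 on the plus strand, in the coordinates of the files, whose genome build is not named. Its level was 651 and 721 CPM in control mice 1 and 3 and 237.8, 291.9 and 276.6 CPM in Ksp-Cre mice 1, 2 and 3. The highest Ksp-Cre mouse was thus far below the lowest control mouse, and the 3 mice lay close together. The means were 686 ± 49.6 CPM (SD, n = 2) and 268.7 ± 27.9 CPM (SD, n = 3), which is 2.55-fold lower, with a log2 fold change of -1.35 (SE 0.15, adjusted p = 0.0366, edgeR).

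Dpep1, a membrane dipeptidase, splits the cysteinylglycine that gamma-glutamyltransferase leaves. It is listed at chr8:123912974-123928551 on the plus strand. Dpep1 was at 101.8 and 94.4 CPM in the control mice and at 38.3, 27.8 and 43.0 CPM in Ksp-Cre mice 1, 2 and 3. No Ksp-Cre mouse came near the control range. The means were 98.1 ± 5.26 CPM (SD, n = 2) and 36.4 ± 7.78 CPM (SD, n = 3), 2.70-fold lower, with a log2 fold change of -1.43 (SE 0.19, adjusted p = 0.0412, edgeR). Within a mouse, the ratio of Ggt1 to Dpep1 in TPM, which scales counts by gene length, was 5.01 and 5.99 in the control mice and 4.87, 8.22 and 5.04 in the Ksp-Cre mice, so that the groups overlapped in this ratio.

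The calls of Ggt1 and Dpep1 rested on all the mice other than Ksp-Cre mouse 3. In the fits without any 1 of those 4 mice, 0 genes of the whole table were called, and the adjusted p (edgeR) of both genes was between 0.117 and 0.496, while the log2 fold changes kept between -1.56 and -1.27 in every fit that left out 1 mouse. Dpep1 was also not called after scaling by library size alone (adjusted p = 0.0617, edgeR) and by limma on log2(TPM + 1) (adjusted p = 0.0726).

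The meprin genes encode the subunits of a secreted and membrane-bound metalloprotease that is abundant in the brush border of the mouse kidney. Mep1a, the alpha subunit (chr17:43785215-43815034, minus strand), was at 863 and 1131 CPM in control mice 1 and 3 and at 518, 699 and 421 CPM in Ksp-Cre mice 1, 2 and 3. All 3 lay below both control mice, although the 2 control mice themselves were far apart. The means were 997 ± 189.5 CPM (SD, n = 2) and 546 ± 141.3 CPM (SD, n = 3), and the log2 fold change of -0.87 (SE 0.25) was not called by edgeR (adjusted p = 0.150). DESeq2, which called 5.50% of all genes lower, called Mep1a beside Ggt1 and Dpep1 (adjusted p = 0.0188). Without Ksp-Cre mouse 3 the log2 fold change of Mep1a was -0.71 (adjusted p = 0.0265, edgeR).

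Mep1b, the beta subunit (chr18:21205401-21233256, plus strand), had the lowest log2 fold change of the 10 genes and the widest spread. It was at 71.1 and 134.9 CPM in the control mice, or 1054 and 1880 counts. Ksp-Cre mice 1 and 2 had 12.1 and 21.7 CPM, or 213 and 367 counts, and mouse 3 had 9 counts, which is 0.600 CPM. Mouse 3 thus held 0.582% of the control mean, against 11.7% and 21.1% in mice 1 and 2. The means were 103 ± 45.1 CPM (SD, n = 2) and 11.5 ± 10.6 CPM (SD, n = 3), an 8.99-fold lower mean, and with this spread the log2 fold change of -3.16 (SE 0.98) was not called (adjusted p = 0.169, edgeR). Without Ksp-Cre mouse 3 it was -2.61 (adjusted p = 0.00176, edgeR).

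The ratio between the subunits follows from the levels of Mep1a and Mep1b given above and is no separate result. Its value in Ksp-Cre mouse 3 rests on 9 Mep1b counts. The ratio of Mep1a to Mep1b in TPM was 9.09 and 6.27 in the control mice and 32.1, 24.1 and 525 in Ksp-Cre mice 1, 2 and 3, so that no Ksp-Cre mouse overlapped the control mice. Slc7a13, a transporter of the late, straight part of the proximal tubule that was chosen after its values were seen, had its lowest value in the same mouse. Slc7a13 was at 259.6 and 390.6 CPM in control mice and at 35.3, 55.9 and 3.13 CPM in Ksp-Cre mice. Cyp7b1, also chosen after its values were seen, was at 45.8 and 139.3 CPM against 14.5, 20.9 and 4.73 CPM. Their part in the Mep1b values was not tested. In bulk kidney, fewer cells of a tubule segment and less RNA per cell cannot be told apart.

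Anpep, aminopeptidase N, trims neutral amino acids from the ends of peptides. It is listed at chr7:79471551-79497958 on the minus strand. Anpep was at 200.8 and 240.7 CPM in the control mice and at 127.4, 139.3 and 46.9 CPM in Ksp-Cre mice 1, 2 and 3. The first 2 of these held 57.7% and 63.1% of the control mean and mouse 3 held 21.3%. The log2 fold change was -1.08 (SE 0.43) and was not called (adjusted p = 0.259, edgeR), whereas without mouse 3 it was smaller in size, -0.72, with a lower adjusted p of 0.00481 (edgeR).

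Dpp4, a serine dipeptidyl peptidase that clips peptides such as incretins, differed by less (chr2:62160417-62242635, minus strand). It was at 133.3 and 140.8 CPM in the control mice and at 111, 124.6 and 106.6 CPM in the Ksp-Cre mice. The groups did not overlap in CPM, but they overlapped in the deposited TPM, at 41.9 and 40.1 against 40.7, 45.7 and 34.9. The log2 fold change was -0.26 (SE 0.12, adjusted p = 0.309, edgeR).

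Treh, trehalase, splits the sugar trehalose and is the only carbohydrase among the 10 (chr9:44584530-44597602, plus strand). Its level was 86.5 and 86.2 CPM in the control mice. Ksp-Cre mice 1 and 2 were at 37.1 and 51.0 CPM, while mouse 3 was at 83.4 CPM, or 96.5% of the control mean. The order of the Ksp-Cre mice was therefore unlike that of Mep1b, Anpep and Pdzk1, in which mouse 3 was the lowest. The log2 fold change was -0.60 (SE 0.32, adjusted p = 0.372, edgeR), and without mouse 3 it was -0.97 (adjusted p = 0.00320, edgeR).

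**Figure D2:**
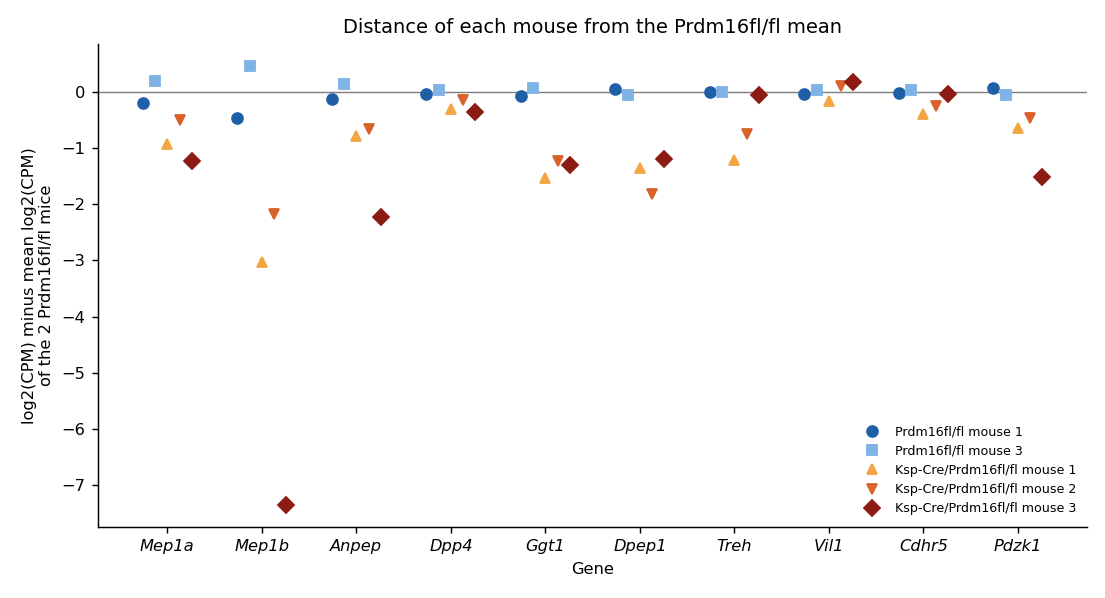
For each of the 10 genes and each mouse, log2 CPM minus the mean log2 CPM of the 2 control mice, which is the grey line at 0. Ksp-Cre mouse 3 (dark red diamonds) lies lowest for Mep1a, Mep1b (-7.35), Anpep (-2.23), Dpp4 and Pdzk1 (-1.51), and near 0 for Treh (-0.05), Cdhr5 (-0.04) and Vil1 (0.17).

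Of the structural and scaffold genes, Vil1 and Cdhr5 lay nearer to the control level than Pdzk1. Vil1, villin, which bundles and severs the actin of the microvillus core, was at 220.0 and 231 CPM in the control mice and at 200.7, 241.6 and 254.3 CPM in the Ksp-Cre mice. Ksp-Cre mouse 1 lay below both control mice and the other 2 above both. The log2 fold change was 0.04 (SE 0.15, adjusted p = 0.902, edgeR) and turned to -0.03 without Ksp-Cre mouse 3. Vil1 is listed at chr1:74448543-74474719 on the plus strand and overlaps Usp37 on the minus strand. Strand use in counting is not given in the sources used here, so reads of the 2 genes may have been mixed.

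Cdhr5, a protocadherin of the links between microvillus tips, was at 272.2 and 282.5 CPM in the control mice and at 210.4, 232.4 and 269.7 CPM in Ksp-Cre mice 1, 2 and 3 (chr7:140848993-140856708, minus strand). Mouse 3 was only just below the lower control mouse. The log2 fold change was -0.22 (SE 0.15, adjusted p = 0.461, edgeR) and was 0.01 by limma on log2(TPM + 1), so that its direction depended on the scale.

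Pdzk1, a scaffold with PDZ domains that binds apical transporters such as those of phosphate and urate, was at 434 and 399 CPM in the control mice and at 266.7, 302.2 and 146.3 CPM in Ksp-Cre mice 1, 2 and 3. All 3 were lower than both control mice, mouse 3 by the most. The means were 416.7 ± 24.7 CPM (SD, n = 2) and 238.4 ± 81.7 CPM (SD, n = 3), with a log2 fold change of -0.81 (SE 0.30, adjusted p = 0.230, edgeR), or -0.55 without mouse 3 (adjusted p = 0.0131, edgeR). Pdzk1 is listed at chr3:96736772-96778242 on the plus strand and overlaps Gpr89 and 4930442L01Rik on the minus strand.

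The number called was highest without Ksp-Cre mouse 3. In that fit, 7 of the 10 were called lower (Mep1a, Mep1b, Anpep, Ggt1, Dpep1, Treh and Pdzk1), where 11.0% of all genes tested were called lower. Dpp4, Vil1 and Cdhr5 were not called in any of the 16 fits that were not scaled to proximal tubule markers. The number of genes whose Ksp-Cre mice lay below both control mice was still 9 without mouse 3, beside 30.7% of all genes. In the deposited TPM it was 6, the exceptions being Dpp4, Treh, Vil1 and Cdhr5, beside 10.4% of all genes. Scaled by library size alone it was 7, the exceptions being Dpp4, Treh and Vil1, beside 15.2% of all genes. These 3 counts were added after the data were seen.

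Promoter sequence of the members was read from RefSeq windows on GRCm38.p6, which hold 250 bases before and 50 after each annotated start. Of the 10 genes, 9 matched, with 13 windows, since Ggt1 has 4 annotated starts and Pdzk1 has 2. The letters CAAAGTCCA, a binding site of the proximal tubule factor HNF4, were searched on both strands. They occurred in 2 of the 13 windows, those of Treh and of 1 start of Pdzk1, and in 0.475% of the 32851 windows of all genes. The variant CAAAGTTCA, found in 0.390% of all windows, and GTTAAT, part of the HNF1 site found in 7.10% of them, occurred in none of the 13. These 3 patterns were kept after matches of several patterns had been seen. The HNF4 factor gene itself, Hnf4a, had a log2 fold change of -0.37 (adjusted p = 0.357, edgeR). The windows below run from 250 bases before the start to 30 bases from it. Dpep1, which was called lower and has no match, is shown beside Treh and Pdzk1, and capitals mark the match.
Dpep1, chr8:123185985-123186264, plus strand: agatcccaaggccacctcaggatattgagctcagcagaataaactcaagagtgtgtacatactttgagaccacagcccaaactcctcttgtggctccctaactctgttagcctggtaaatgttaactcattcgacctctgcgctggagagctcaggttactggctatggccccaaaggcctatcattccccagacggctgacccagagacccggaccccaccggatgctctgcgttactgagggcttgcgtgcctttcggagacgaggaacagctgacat
Treh, chr9:44672983-44673262, plus strand: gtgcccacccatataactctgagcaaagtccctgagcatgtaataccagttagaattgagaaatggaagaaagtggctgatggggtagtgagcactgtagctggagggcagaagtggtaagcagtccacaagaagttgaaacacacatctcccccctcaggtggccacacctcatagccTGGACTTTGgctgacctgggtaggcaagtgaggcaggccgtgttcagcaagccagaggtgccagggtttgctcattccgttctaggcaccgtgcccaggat
Pdzk1, chr3:96829815-96830094, plus strand: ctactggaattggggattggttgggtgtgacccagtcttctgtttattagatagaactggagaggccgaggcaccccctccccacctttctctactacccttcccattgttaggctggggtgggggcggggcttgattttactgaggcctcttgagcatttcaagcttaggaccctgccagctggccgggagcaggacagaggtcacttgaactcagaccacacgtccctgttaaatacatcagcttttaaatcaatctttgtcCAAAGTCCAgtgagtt
The match lies on the opposite strand from base -71 to base -63 in Treh and on the gene's strand from base 14 to base 22 in Pdzk1, counted from 0 at the annotated start. Treh and Pdzk1 differed in the order of the Ksp-Cre mice, as given above, and neither was called with all 5 mice. A match of letters is a description and not evidence of binding in these kidneys.

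Levels of different genes were compared in TPM. In the control mice the order of mean TPM was Mep1a (709.6), Ggt1 (503), Pdzk1 (278.7), Cdhr5 (229.4), Vil1 (158.2), Anpep (124.9), Mep1b (97.1), Dpep1 (92.2), Treh (86.4) and Dpp4 (41.0). The values of Mep1b, Dpep1 and Treh overlapped between mice, and Mep1b also overlapped Anpep. In the Ksp-Cre mice Mep1a stayed first (465.9), and Ggt1 (233.1), Cdhr5 (231.1), Vil1 (191.8) and Pdzk1 (190.6) followed. The values of Ggt1, Cdhr5 and Pdzk1 overlapped between mice. Pdzk1 was within the range of Ggt1 in mice 1 and 2, at 218.2 and 246.9 TPM, and its lower mean rests on mouse 3, at 106.7 TPM. Mep1b moved from seventh to last, at 13.4 TPM. Within a mouse, Vil1 in TPM was 0.323 and 0.306 of Ggt1 in the control mice and 0.806, 0.790 and 0.878 of it in the Ksp-Cre mice. Together the 10 genes held 2276 and 2365 TPM in the control mice and 1507, 1829 and 1297 TPM in the Ksp-Cre mice.

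To set the 10 genes beside the tubule segment that carries them, they were compared with 15 other transcripts of the proximal tubule, such as the endocytic receptors Lrp2 and Cubn and the organic anion transporters Slc22a6 and Slc22a8. In 13 of the 15, all 3 Ksp-Cre mice lay below both control mice, beside 21.3% of all genes tested. All 15 had a log2 fold change below 0, with a median of -1.28. By edgeR 4 were called lower (Slc22a8, Acsm2, Fbp1 and Miox), beside 0.872% of all genes. DESeq2 called 10 of them lower, beside 5.50% of all genes. Their summed level was 19866 and 21998 CPM in the control mice and 8083, 9663 and 11474 CPM in the Ksp-Cre mice. This sum was therefore highest in mouse 3 among the Ksp-Cre mice, whereas Mep1b, Anpep and Pdzk1 were lowest there. A sum gives most weight to abundant transcripts, and single markers differed. Slc22a8 (73.8, 67.0 and 49.6 CPM in Ksp-Cre mice 1, 2 and 3) and Miox (211.7, 242.6 and 129.9 CPM) were also lowest in mouse 3. For Acsm2 and Fbp1, mouse 3 lay between mice 1 and 2.

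Each library was then scaled to the summed counts of these 15 markers and the edgeR test was run again over all genes. The abundant markers thus set most of this scale. On this scale 0 of the 10 genes were called lower, beside 0.415% of all genes, and Mep1b was the 1 gene below 0 with an unadjusted p under 0.05 (edgeR). Ggt1 had a log2 fold change of -0.23 (adjusted p = 0.326, edgeR) and Dpep1 of -0.31 (adjusted p = 0.263, edgeR), so that both genes called on the first scale were near the markers on this one. Mep1a was at 0.28 and Anpep at 0.12. Mep1b was the farthest below, at -1.94 (SE 0.84, adjusted p = 0.0553, edgeR). Mep1b was called when Lrp2 and Cubn alone set the scale (-2.58, adjusted p = 0.00174, edgeR). There 5706 of all 16394 genes had an unadjusted p under 0.05 in either direction (edgeR). Mep1b was called, too, without Ksp-Cre mouse 3 (-1.37, adjusted p = 3.94e-09, edgeR), where 14767 genes had an unadjusted p under 0.05. It was also called without control mouse 1 (adjusted p = 0.0454, edgeR) and without Ksp-Cre mouse 2 (adjusted p = 0.0317, edgeR). It was not called without control mouse 3 (adjusted p = 0.170, edgeR), without Ksp-Cre mouse 1 (-2.08, adjusted p = 0.152, edgeR) or with a marker list that lacked Slc22a6 and Slc22a8 (-1.97, adjusted p = 0.0607, edgeR).

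Vil1 (1.15, adjusted p = 0.00183, edgeR), Cdhr5 (0.89, adjusted p = 0.00426, edgeR) and Dpp4 (0.87, adjusted p = 0.00803, edgeR) were called higher than the markers. On this scale 75.4% of all genes were called higher and the median log2 fold change over all genes was 1.16, so these 3 calls say only that Vil1, Cdhr5 and Dpp4 did not follow the markers down. The 3 values were below that median. With Lrp2 and Cubn alone as the scale, none of the 3 was called. There Vil1 was at 1.12 (adjusted p = 0.178, edgeR), Cdhr5 at 0.88 (adjusted p = 0.264, edgeR) and Dpp4 at 0.75 (adjusted p = 0.318, edgeR).

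**Figure D3:**
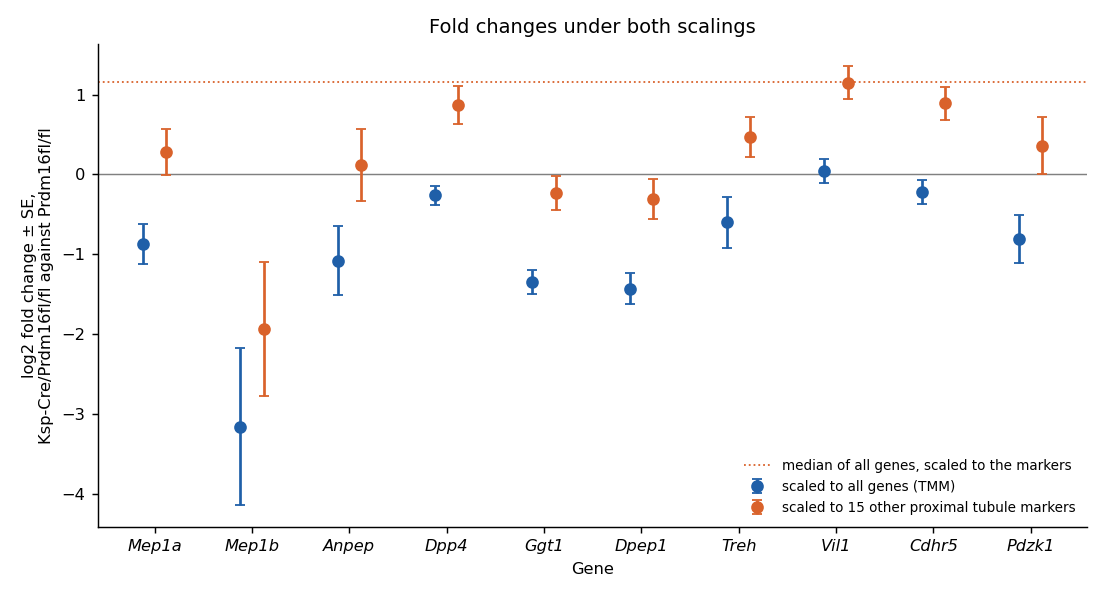
log2 fold change with its standard error (edgeR) for each gene, in blue after TMM scaling to all genes and in orange after scaling to the summed counts of 15 other proximal tubule markers. The dotted line is the median of all genes on the second scale (1.16), and there Ggt1, Dpep1, Mep1a and Anpep lie between -0.31 and 0.28 while Mep1b lies at -1.94.

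Other genes of the brush border were read from lists of each kind. Of 12 genes listed as other brush border ectoenzymes, 1 was called lower (0.872% of all genes were) and none higher by edgeR. Their median log2 fold change was -0.25. An unadjusted p under 0.05 was found for 3 of them, beside 18.8% of all genes. DESeq2 called 3 of them lower, beside 5.50% of all genes. The gene called was Pm20d1, a secreted enzyme that joins and splits N-acyl amino acids and is not itself anchored in the brush border membrane. Pm20d1 was at 45.2 and 40.6 CPM in the control mice and at 17.0, 18.0 and 14.0 CPM in the Ksp-Cre mice, with a log2 fold change of -1.39 (SE 0.15, adjusted p = 0.0366, edgeR). As with Ggt1, its 3 Ksp-Cre mice were close together. At the other end of the list, Folh1, a glutamate carboxypeptidase, was at 114.0 and 99.0 CPM against 74.9, 93.3 and 207.2 CPM (log2 fold change 0.23, adjusted p = 0.807, edgeR), and mouse 3 alone was high. For 5 of the 12, all 3 Ksp-Cre mice lay below both control mice, where 21.3% of all genes did so.

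Of 14 tested genes of the microvillus core and its adhesion complex, 0 were called in either direction by edgeR. An unadjusted p under 0.05 was found for 5 (18.8% of all genes), and DESeq2 called 3 lower (5.50% of all genes). For 5 of the 14, all 3 Ksp-Cre mice lay below both control mice (21.3% of all genes), and for 2 above both (20.3%). In all, 6 of the 14 were below 0 and 8 above, and the median log2 fold change was 0.03. The lowest was Calml4, a light chain of the adhesion complex, at 212.2 and 274.8 CPM against 138.1, 145.4 and 117.6 CPM (-0.86, adjusted p = 0.0685, edgeR). The highest was Ezr, ezrin, which ties the membrane to actin, at 687.1 and 666 CPM against 781.9, 807.5 and 1201 CPM (0.46, adjusted p = 0.339, edgeR).

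Of 7 other genes of apical PDZ scaffolds and their partners, 0 were called by edgeR. An unadjusted p under 0.05 was found for 4 (18.8% of all genes), and DESeq2 called 2 lower (5.50% of all genes). For 4 of the 7, all 3 Ksp-Cre mice lay below both control mice (21.3% of all genes). The median log2 fold change of the 7 was -0.47. The lowest was Pdzk1ip1, a membrane partner of Pdzk1, at 532.9 and 547.7 CPM against 359.5, 300.5 and 210.2 CPM (-0.90, adjusted p = 0.121, edgeR). Like Pdzk1 it was lowest in mouse 3. The highest was Gopc, a scaffold of the Golgi, at 71.9 and 63.8 CPM against 72.2, 74.4 and 57.1 CPM (0.00, adjusted p = 0.999, edgeR).

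Paralogs of the member enzymes that are not typical of the brush border were not lower as a list. Of 14 tested, 0 were called by edgeR or DESeq2 and 1 had an unadjusted p under 0.05 (18.8% of all genes did). Their log2 fold changes ran from -0.40 to 0.65 with a median of 0.19. The summed level of the 19 paralogs listed was 701.3 and 682.8 CPM in the control mice and 698.1, 722.5 and 729.9 CPM in the Ksp-Cre mice, and the groups overlapped.

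**Figure D4:**
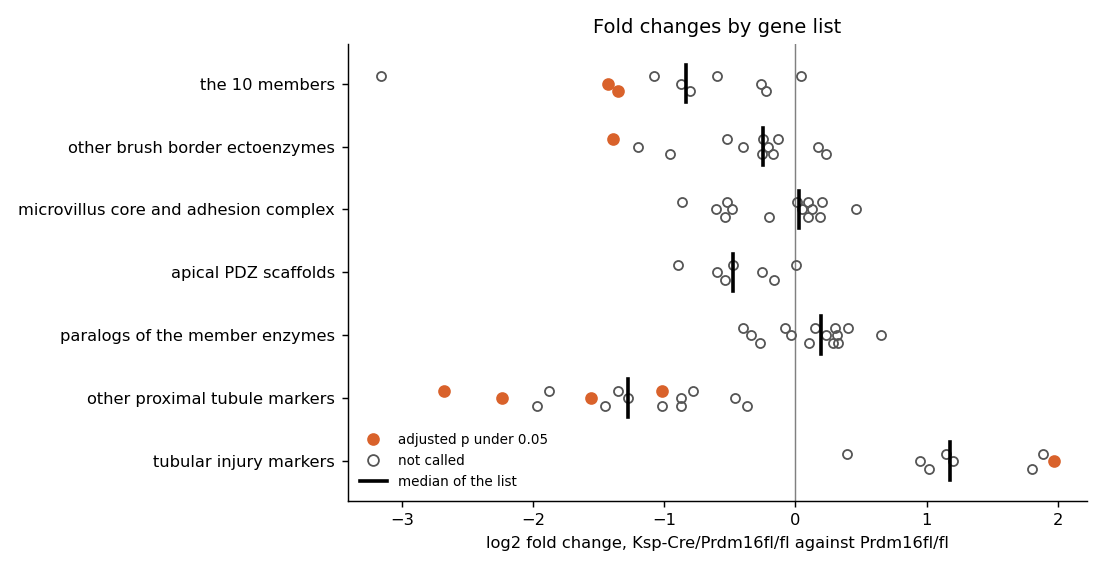
log2 fold change of each tested gene (circles) in 7 gene lists, with the median of each list as a black bar and genes called at an adjusted p under 0.05 in orange. The medians run from -1.28 for the other proximal tubule markers and -0.84 for the 10 brush border genes to 0.03 for the microvillus core, 0.19 for the paralogs and 1.18 for the tubular injury markers.

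Markers of tubular injury, other nephron segments and other cells were read in the same way. All 8 tubular injury markers were above 0, with a median of 1.18, and for 7 of them all 3 Ksp-Cre mice lay above both control mice, where 20.3% of all genes did so. Krt19 alone was called by edgeR, and DESeq2 called 7 of the 8 higher, beside 1.88% of all genes. Their summed level was 14960 and 15520 CPM in the control mice and 32070, 32690 and 38050 CPM in the Ksp-Cre mice. All 9 markers of the loop of Henle, distal tubule and collecting duct were below 0, with a median of -0.71, and 0 were called by edgeR. Among them 1 had an unadjusted p under 0.05 (18.8% of all genes) and DESeq2 called 1 lower (5.50% of all genes). Their sum was 5875 and 5964 CPM against 4707, 3963 and 2269 CPM, so that mouse 3 was lowest. The fibroblast list had a median of 0.54, the macrophage list of 0.16, the endothelial list of -0.09 and the lymphocyte list of -0.35, and 0 genes of these 4 lists were called by edgeR. At an unadjusted p under 0.05 there were 4, 1, 1 and 0 genes in them, beside 18.8% of all genes. DESeq2 called 1 fibroblast gene and 1 macrophage gene higher, beside 1.88% of all genes. The 5 erythroid markers had a median of 3.93 with 0 called by edgeR, while all 5 had an unadjusted p under 0.05 and were called by DESeq2, and their sum was 6.67 and 10.8 CPM against 151.2, 150.3 and 40.5 CPM. The part of these markers in the values of the 10 genes was not tested.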

How the data were processed

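Kidney RNA of 5 mice was analysed, 1 library per mouse, grouped by the genotype in the labels. The authors removed adapter and low-quality reads and deposited, for each mouse, raw counts per gene together with TPM and FPKM. Recomputing the deposited TPM and FPKM from the counts gave the same values within rounding. Per the labels, the processing notes name featureCounts 2.0.1, DESeq2 1.16.1, CASAVA and hg38, a human build that cannot be that of these mouse coordinates. The aligner, annotation and strand setting are not given in the sources used here. Lines of 5 genes were broken and were rejoined.

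Counts were filtered with filterByExpr, scaled with TMM and tested with the quasi-likelihood test of edgeR 4.0.16 (R 4.3.3), without covariates, over all 16394 genes kept. Calls were made where the p-value adjusted by Benjamini-Hochberg was under 0.05. A second fit took each library's size from the summed counts of 15 proximal tubule markers. Alternatives were other scalings and filters, DESeq2 1.42.0, limma 3.58.1 on log2(TPM + 1) and log2(TPM + 0.1) for genes with a TPM of at least 1 in 2 libraries, removal of a gene length trend (loess, span 0.3), leaving out each mouse, and the mouse number as a block. A fold change of limma on log2(TPM + 1) understates the change of low genes. The main edgeR fit, its length-trend, marker-scale and block forms, DESeq2 and limma on log2(TPM + 1) were first run on simulated data. The other scalings and filters, limma on log2(TPM + 0.1) and the fits without 1 mouse were not. Tables were handled with Python 3.11.15.

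The 10 genes and the lists were chosen with earlier results of these data known. All 10 are given with every library's value. Of the other ectoenzyme, microvillus and PDZ lists, called genes and the lowest and highest log2 fold change are named, together with Prdm16 and Cdh16. The called proximal tubule and injury markers, Hnf4a, Slc7a13 and Cyp7b1 were named after their values were seen. Depth was 14939040 to 16425161 counts per library. Nothing in the labels says how the mice relate to litters or batches.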

Additional observations from a re-analysis of the deposited data

How the results depend on the processing

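With 143 genes called lower and 17 higher in the whole table, scaling by library size gave 37 lower, DESeq2 gave 902 lower and 308 higher, no filter beyond 1 count gave 408 and 63, limma on log2(TPM + 1) gave 26 lower and on log2(TPM + 0.1) 23 lower, and removal of the gene length trend gave 29 and 4. The share of higher genes among those called was 10.6% with TMM, 27.5% with library size, 25.5% with DESeq2, and 43.5% and 46.5% with limma, and the median log2 fold change over all genes moved from 0.038 to 0.149 with library size and to 0.228 and 0.255 with limma. Leaving out 1 mouse gave 0 to 1787 lower and 0 to 1266 higher genes, the highest being without Ksp-Cre mouse 3. The 0 counts came from edgeR in fits with 1330 to 2514 genes at an unadjusted p under 0.05.

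Of the 10 genes, 2 were called lower, and 1 with library size or either limma fit, 0 with the length trend removed and 0 to 7 when 1 mouse was left out. Relative to the proximal tubule markers 0 were called, 1 with Lrp2 and Cubn alone as the scale, 0 with a list that lacked Slc22a6 and Slc22a8, and 0 to 1 when 1 mouse was left out. The gene called was Mep1b in each case. Ggt1 was called in 10 and Dpep1 in 7 of the 16 fits that were not scaled to the markers. The log2 fold change of Vil1 was 0.04, and was 0.15 with library size and 0.27 with both limma fits. It ran from -0.03 to 0.14 when 1 mouse was left out and was below 0 only without Ksp-Cre mouse 3. That of Cdhr5 turned from -0.22 to 0.01 with both limma fits. Across the same 16 fits, each of the other 8 genes was below 0 wherever it was tested. The count of 9 genes with separate groups (21.3% of all genes) was 7 with library size (15.2%) and 6 in TPM (10.4%), settings chosen after seeing the data. The cause of these changes was not tested.

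Mouse numbers 1 and 3 are shared by both genotypes, and nothing in the labels says what a number marks. Deviations of same-numbered mice from the group means correlated at 0.001 and -0.022, and those of unlike-numbered mice at -0.039 to 0.039. With 2 control mice, their deviations mirror each other, so this check cannot show whether the numbers mark pairs. The numbers were not taken as pairs. With the mouse number as a replicate block, 0 genes were called lower and 0 higher (2061 at an unadjusted p under 0.05). In this fit 0 of the 10 genes were called lower. Relative to the markers 1 was called lower, Mep1b, where 11722 of all genes had an unadjusted p under 0.05 (edgeR). Ksp-Cre mouse 2 is alone with its number and adds nothing to the genotype comparison there, so these counts rest on mice 1 and 3 of each genotype.

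Depth limits Mep1b in Ksp-Cre mouse 3 alone among these genes, where it rests on 9 counts.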
